A study of Rattus norvegicus with 24 samples.

Results

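The cytosolic ribosomal protein genes encode the protein components of the ribosomes that work outside mitochondria. They were chosen by symbol alone, as probe sets with a single gene symbol of the Rpl or Rps series, or Rpsa, Rplp0, Rplp1 or Rplp2, without the Rps6k kinases, pseudogenes and paralogs whose symbols end in l. This gave 43 genes on 49 probe sets, out of 14218 genes with a probe set of 1 symbol and 31099 probe sets in all. Of the 43, 29 belong to the large subunit and 14 to the small subunit, and 39 passed the filter on dim signal, which asked for at least 6 arrays above 4 log2 units. Where a gene had several probe sets, the one with the highest mean stood for it.

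The series profiled the CA1 field of the rat hippocampus on Affymetrix Rat Genome 230 2.0 arrays, and the labels call each array a biological replicate. All rats were untreated male Long-Evans rats that lived 1 to a cage. The young group held 9 arrays of rats aged 6 months. The aged unimpaired group held 6 arrays and the aged impaired group 8 arrays, all of rats aged 24 to 26 months. A learning index from the Morris water maze, a test of memory for the place of a hidden platform, divided the aged rats: unimpaired rats scored within the range of the young and impaired rats worse than it. Impairment is thus a cut on a behavioural score. The column of 1 further aged unimpaired array was blank and was not used, and young replicate 9, kept as labelled, stands among the aged unimpaired columns. The tissue was microdissected and bulk, so fewer cells of a type and less RNA per cell cannot be told apart.

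Each ribosome joins a small subunit, which holds the messenger RNA and reads its codons, to a large subunit, which forms peptide bonds and carries the exit tunnel for the new protein. The proteins are needed in matched amounts. Their messengers typically begin with a terminal oligopyrimidine tract, a stretch of C and T letters at the start of transcription through which the mTOR pathway controls their translation. In neurons, local and somatic protein synthesis is needed for lasting synaptic change.

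Promoter windows were read to show what the members share that the choice by symbol did not use. RefSeq on GRCr8 gave a promoter for 35 of the 39 genes that passed the filter; Rpl23a, Rpl27, Rpl7 and Rps29 had none in the table. These windows run from 40 bases before to 20 bases from the annotated start, 5′ to 3′ on the gene's strand, and capitals mark a run of at least 8 C or T. Shown are the 4 genes with the smallest p between aged and young arrays, then Rpl24, which holds no such run in its window although its correlation with the other members across arrays, described further on, was 0.91.
Rps6: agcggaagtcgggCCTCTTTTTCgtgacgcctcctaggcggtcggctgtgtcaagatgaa
Rpl5: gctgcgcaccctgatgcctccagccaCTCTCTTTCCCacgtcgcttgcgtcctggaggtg
Rps24: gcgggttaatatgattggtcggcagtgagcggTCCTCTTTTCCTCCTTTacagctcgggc
Rpl14: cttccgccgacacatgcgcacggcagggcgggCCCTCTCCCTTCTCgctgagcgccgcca
Rpl24: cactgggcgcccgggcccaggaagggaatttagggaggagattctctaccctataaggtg

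The windows lie at chr5:106420521-106420580 on the minus strand for Rps6, chr14:1995206-1995265 on the minus strand for Rpl5, chr16:96477-96536 on the plus strand for Rps24, chr8:129163580-129163639 on the plus strand for Rpl14 and chr11:58128386-58128445 on the minus strand for Rpl24. Each covers the end of the promoter and the first bases of exon 1 of its gene. A run of at least 8 C or T on the gene's strand, reaching within 25 bases of the start, was found in 27 of the 35 genes (77.1%). It was found in 22.2% of 7629 tested genes with a promoter and in 24.6% of all 27457 promoters. A counted run need not lie in the annotated messenger. Those of Rps6 and Rpl5, 10 and 11 bases long, begin 27 and 14 bases before the annotated start and end before it. The letters CCGGAAG, sought on both strands, were found in 8 of the 35 (22.9%), against 18.7% of tested genes and 9.22% of all promoters. On the opposite strand these letters read CTTCCGG, so they can share bases with a pyrimidine run. The 35 genes lie on 13 chromosomes.

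Signals of most of the 39 genes were near the top of the array's range, while Rpl39 ranked 5022 among the 9076 tested genes. A gene's brightness also depends on its probes, so signals do not order the genes by amount of RNA. Means over the 23 arrays ran from 8.16 log2 units for Rpl39, a small protein of the exit tunnel, to 14.58 for Rps29, a zinc-binding protein of the small subunit head, and 36 of the 39 were among the brightest 5% of the 9076 tested genes. Rpl13a had a mean of 14.01, Rpl3, a core protein near the peptidyl transferase centre, 13.88, and Rps23, at the decoding centre, 13.76. Spread was small: the SD over all arrays ran from 0.044 for Rps29 to 0.145 for Rps28. Rps16, at 0.129, and Rps15, at 0.120, both with tails that reach the decoding centre, followed Rps28. The 4 genes below the filter were Rpl28 at 3.02, Rpl30 at 2.44, Rps13 at 2.22 and Rps4y2 at 2.01.

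The ribosomal protein genes moved together from array to array. Over the 741 pairs of genes the median Pearson correlation across 23 arrays was 0.66, 740 of the correlations were above 0, and the median within groups was 0.62. A first principal component held 66.0% of the variance of the 39 genes, and differences between the 3 groups held 19.5%. Each gene was also set against the median of the other 38 or, for a gene outside the set, of all 39. The median correlation of the members was 0.81, with the highest value for Rps29 at 0.93 and the lowest for Rpl39 at 0.48, Rpl4 at 0.53 and Rps16 at 0.55. The large and small subunits had the same median of 0.81. Among 339 other genes of like signal, with means between 11.93 and 13.69, the median was 0.085, and over all tested genes it was 0.14. All points come from the same arrays, so these correlations also hold what a whole array shares.

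Whole arrays stood high or low. In aged impaired replicates 5 and 7 all 39 genes lay above their own mean over the arrays, and in aged impaired replicate 2 it was 38. In aged impaired replicate 3 it was 1, and in aged impaired replicate 8 it was 6. The young arrays had between 1 and 37 genes above their mean, with a median of 5, the highest being young replicate 3. The aged unimpaired arrays kept between 17 and 33. The groups overlapped widely, and the lowest count, 1, was found in young replicates 5 and 7 as well as in aged impaired replicate 3.

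**Figure D1:**
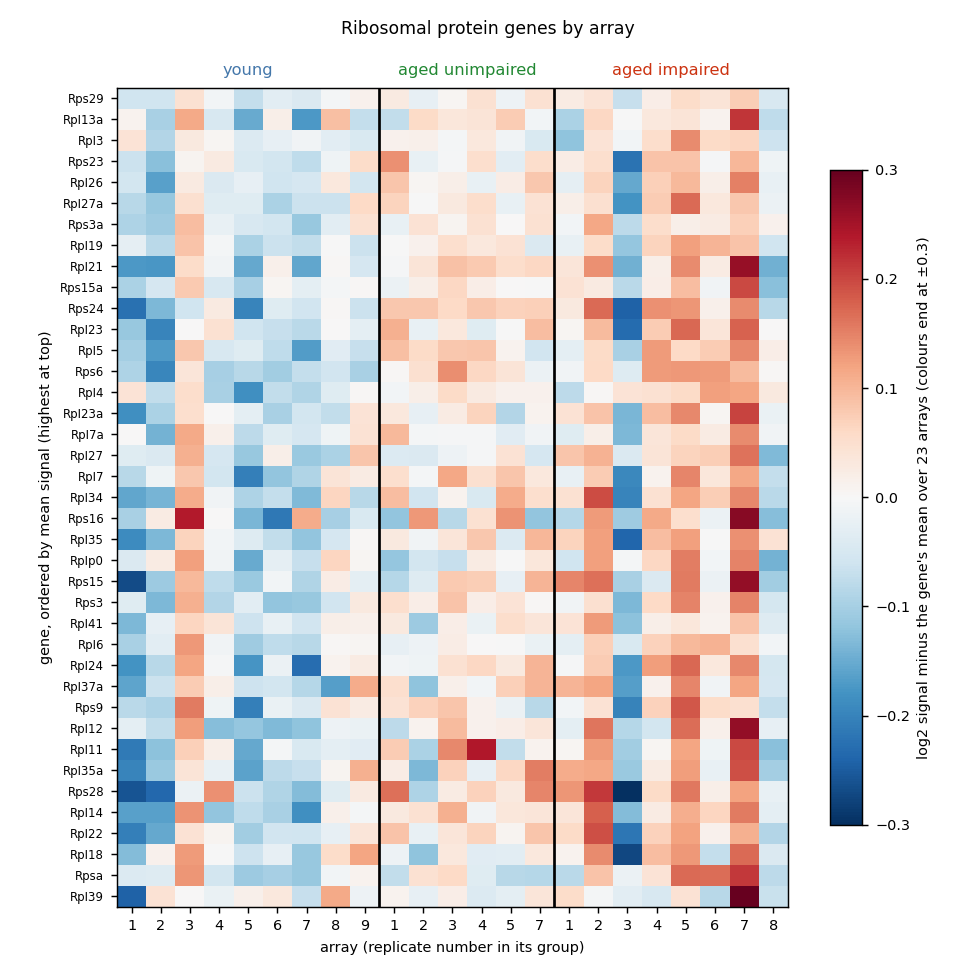
Log2 signal of the 39 ribosomal protein genes (rows, by mean signal) in each of 23 arrays (columns, by group and replicate number), as the difference from the gene's mean. The arrays at the ends are nearly of 1 colour: aged impaired replicates 5 and 7 are red in all 39 genes and aged impaired replicate 3 is blue in all but 1. Others, such as aged impaired replicate 1 with 21 genes above their mean, are mixed.

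The median of the 39 centred signals gave 1 level for each array. It was -0.040 ± 0.060 (SD, n = 9) log2 units in young arrays, 0.022 ± 0.017 (SD, n = 6) in aged unimpaired and 0.032 ± 0.090 (SD, n = 8) in aged impaired arrays. The lowest and highest were -0.098 and 0.077 in young arrays, -0.0068 and 0.036 in aged unimpaired, and -0.124 and 0.144 in aged impaired arrays. The aged unimpaired arrays were thus the closest together and the aged impaired the most spread; this difference in spread was not tested.

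Aged against young arrays, whatever their learning, was the first comparison. All 39 genes had a higher mean in aged CA1, where 56.1% of all tested genes did. The differences were small, with a median of 0.071 log2 units against 0.011 over all tested genes and 0.0073 over the genes of like signal. In limma with Benjamini-Hochberg adjustment at 0.05, Rps6 was the 1 gene of 39 that rose, and 0 fell, where 3.09% of tested genes were called higher and 0.628% lower. At an unadjusted p under 0.05, 17 of 39 (43.6%) were higher and 0 lower, where 10.6% of all tested genes were higher and 4.74% lower. For 0 of 39 did every aged array lie above every young array, as it did for 0.165% of tested genes. Of these 17, 12 were of the large and 5 of the small subunit. The median difference was 0.077 over the 27 large-subunit genes and 0.060 over the 12 small-subunit genes. Members share the array-wide movement described above, so their count is not that of independent genes.

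Rps6 encodes the small-subunit protein that S6 kinases phosphorylate downstream of mTOR. Its log2 signal had a lowest, median and highest value of 12.72, 12.82 and 12.95 in young arrays, 12.90, 12.96 and 13.05 in aged unimpaired arrays, and 12.87, 12.99 and 13.04 in aged impaired arrays. All 14 aged arrays lay above the young median and 9 lay above every young array, young replicate 3 being the highest young one. The rise was 0.139 ± 0.031 (SE) log2 units, or 10.1% (limma, Benjamini-Hochberg adjusted p = 0.0117).

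Rps24, a protein needed to process the precursor of small-subunit RNA, had the largest difference of the 38 genes that did not pass. Its lowest, median and highest values were 12.97, 13.13 and 13.22 in young, 13.25, 13.27 and 13.28 in aged unimpaired, and 12.95, 13.28 and 13.37 in aged impaired arrays. All 6 aged unimpaired arrays lay above every young array, while aged impaired replicate 3 lay below all of them. The difference between aged and young was 0.136 ± 0.044 (limma, Benjamini-Hochberg adjusted p = 0.0938). A second Rps24 probe set, dim at a mean of 4.69, was at -0.0098 ± 0.056 for aged minus young and at -0.033 ± 0.069 for unimpaired minus young.

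Rpl5, which with 5S ribosomal RNA and Rpl11 forms a particle that also binds Mdm2, had values of 12.92, 13.02 and 13.17 in young, 13.03, 13.16 and 13.18 in aged unimpaired, and 12.99, 13.15 and 13.23 in aged impaired arrays. The groups overlapped, with 13 of 14 aged arrays above the young median. Its difference was 0.114 ± 0.035 (limma, Benjamini-Hochberg adjusted p = 0.0722). For Rpl11 the difference was 0.094 ± 0.047, with 10 of 14 aged arrays above the young median. Rpl14, of the large subunit, differed by 0.120 ± 0.041, Rpl4, which lines the exit tunnel, by 0.084 ± 0.031, and Rpl21 by 0.118 ± 0.045. None of the latter 3 passed the test.

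The other named genes gave a range of sizes, and none passed. The difference was 0.081 ± 0.036 for Rps3, at the entry of messenger RNA, 0.095 ± 0.043 for Rpl22, 0.057 ± 0.040 for Rpl13a and 0.059 ± 0.041 for Rpsa, also known as the laminin receptor. At the low end stood Rplp0, the base of the stalk that recruits elongation factors, at 0.015 ± 0.039, and Rpl18 at 0.0035 ± 0.047. Of the 3 genes with the largest SD over all arrays, Rps28 differed by 0.122 ± 0.058, Rps15 by 0.105 ± 0.049 and Rps16 by 0.040 ± 0.056.

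**Figure D2:**
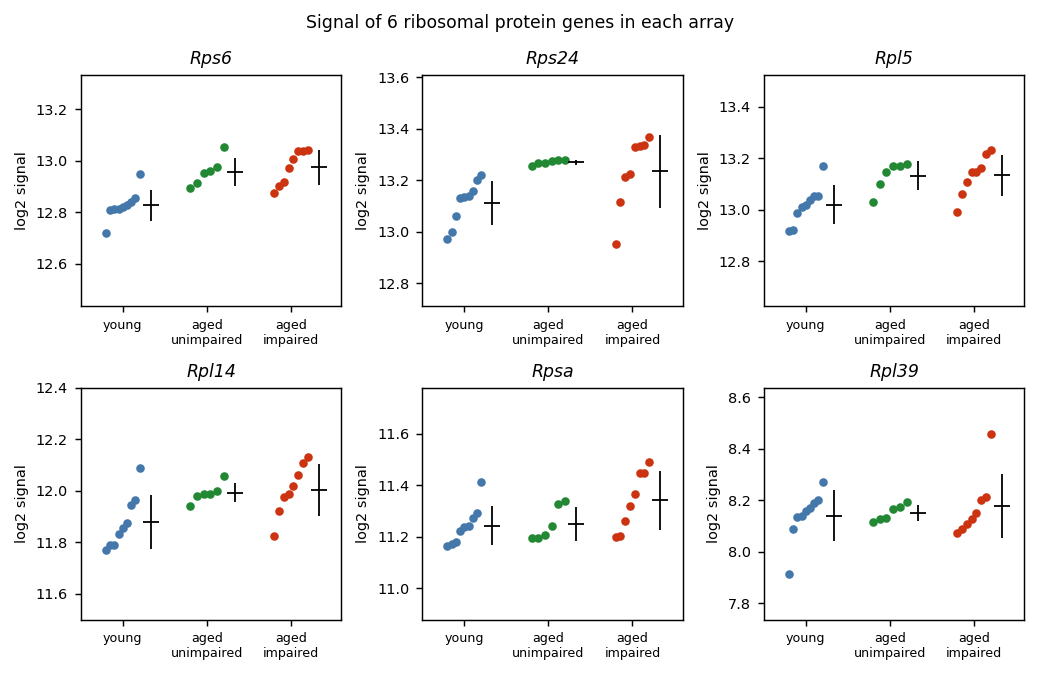
Log2 signal of Rps6, Rps24, Rpl5, Rpl14, Rpsa and Rpl39 in every array by group, points sorted by value within a group, with the group mean and SD as a bar beside them; each panel spans 0.9 log2 units. Rps6 and Rpl5 overlap between groups, and the 6 aged unimpaired values of Rps24 lie between 13.25 and 13.28, above all young ones.

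Single arrays moved the count of called genes. Without aged impaired replicate 3, limma called 4 genes higher with age: Rps6, Rps24, Rpl5 and Rpl35, a protein at the tunnel exit. Without young replicate 3 it called 3, namely Rps6, Rpl5 and Rpl14. Rps6 was called in each of the 23 fits that left out 1 array, with an adjusted p between 0.0054 and 0.0327 (limma, Benjamini-Hochberg).

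Aged impaired and aged unimpaired arrays were each set against the same young arrays, so the next comparisons are not independent. Impaired minus young gave a higher mean in 39 of 39 genes (53.6% of all tested genes) and a median of 0.076, against 0.0079 over all tested genes. Again limma called Rps6 alone, 1 of 39 (3.09% of tested genes were called higher and 0.716% lower), with a rise of 0.146 ± 0.036 (limma, Benjamini-Hochberg adjusted p = 0.0203). At an unadjusted p under 0.05 11 of 39 were higher and 0 lower, where 10.6% of tested genes were higher and 5.98% lower. For 0 of 39 did every impaired array lie above every young array, against 0.452% of tested genes. Rpl5 was next at 0.114 ± 0.040, Rpl14 at 0.125 ± 0.047, Rpl4 at 0.093 ± 0.036, Rps24 at 0.121 ± 0.050 and Rpl23a, which sits beside the tunnel exit, at 0.101 ± 0.043. Without aged impaired replicate 3, 3 genes were called: Rps6, Rps24 and Rpl35.

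Unimpaired minus young gave a higher mean in 37 of 39 genes, where 58.3% of all tested genes were higher, and a median of 0.071, against 0.015 over all tested genes. Rplp0, at -0.022 ± 0.048, and Rpl18, at -0.021 ± 0.058, were the 2 with a lower mean. In limma with Benjamini-Hochberg adjustment 0 of 39 were called, where 0.617% of tested genes were called higher and 0.143% lower, and 5 were higher and 0 lower at an unadjusted p under 0.05 (6.8% and 3.04% of all tested genes). These were Rps6 at 0.130 ± 0.039 (limma, Benjamini-Hochberg adjusted p = 0.135), Rps24 at 0.157 ± 0.054, Rpl5 at 0.114 ± 0.043, Rpl14 at 0.114 ± 0.050 and Rpl21 at 0.124 ± 0.056. Rpl7, which followed in order of p, differed by 0.10 ± 0.049. Rps24 was the 1 gene of 39 for which every aged unimpaired array lay above every young array, as was so for 0.661% of tested genes.

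Impaired and unimpaired aged arrays were then compared directly, which asks whether these genes differ with learning at the same age. A higher mean in impaired arrays was found in 29 of 39 genes, where 47.4% of all tested genes were higher, and the median difference was 0.011 log2 units, against -0.0052 over all tested genes. In limma 0 of 39 were called and 0 had an unadjusted p under 0.05; over all 9076 tested genes 0 were called (0.0%) and 289 (3.18%) were higher and 340 (3.75%) lower at that unadjusted p. Every impaired array lay above every unimpaired array for 0 of 39, against 0.0331% of tested genes. The 95% intervals of all 39 differences lay between -0.168 and 0.197 log2 units. Without aged impaired replicate 7 only 15 of 39 were higher, with a median of -0.0044. Without aged impaired replicate 3 it was 37, with a median of 0.033.

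Rpsa had the smallest p of this comparison. Its lowest, median and highest values were 11.17, 11.24 and 11.41 in young, 11.19, 11.22 and 11.34 in aged unimpaired, and 11.20, 11.34 and 11.49 in aged impaired arrays. Of the 8 impaired arrays 4 lay above every unimpaired array, and the difference was 0.091 ± 0.051, with a 95% interval from -0.015 to 0.197. A second Rpsa probe set of like signal, with a mean of 11.15, gave 0.012 ± 0.064. Rpl27 followed at 0.062 ± 0.046, Rplp0 at 0.065 ± 0.050, Rpl6 at 0.044 ± 0.038, Rpl23a at 0.048 ± 0.048 and Rpl7 at -0.041 ± 0.051.

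**Figure D3:**
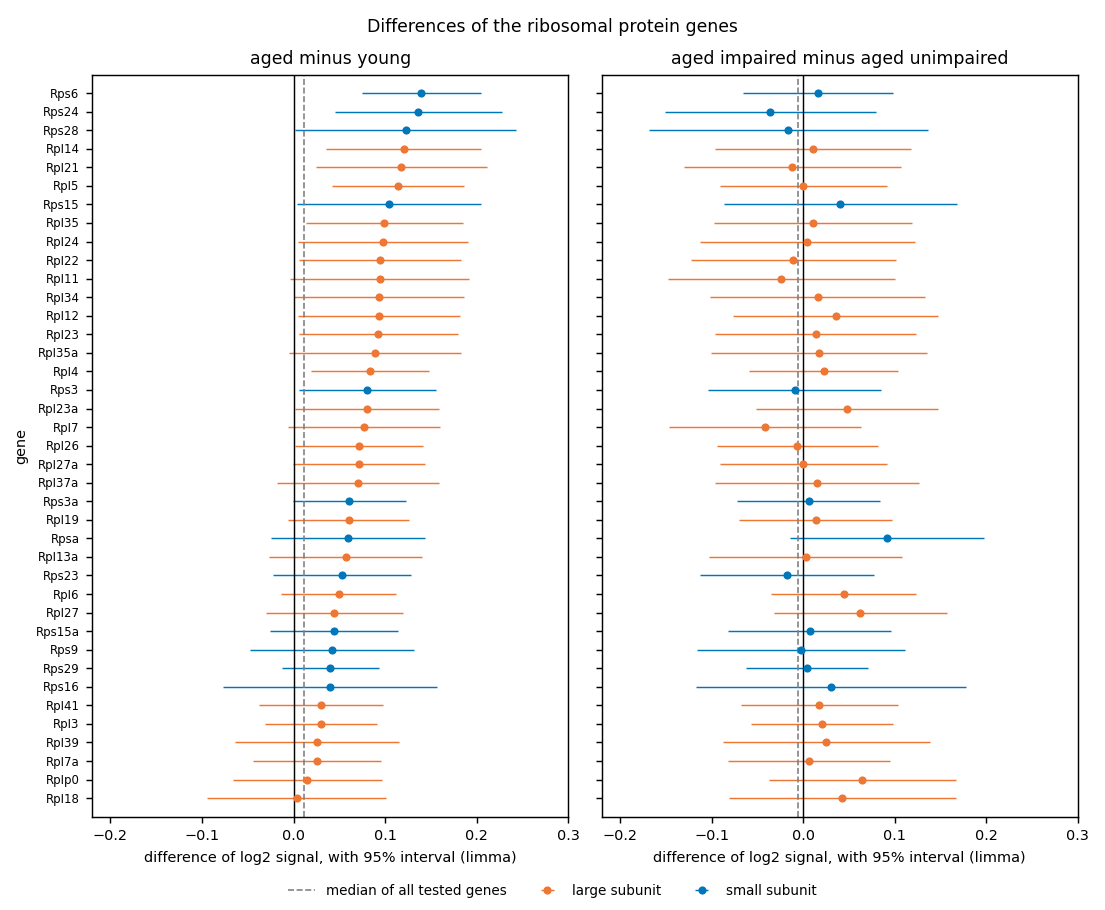
Difference of log2 signal with its 95% interval (limma) for each of the 39 genes, by subunit, for aged minus young on the left and aged impaired minus aged unimpaired on the right, with genes ordered by the left panel. All points on the left lie above 0, from 0.0035 for Rpl18 to 0.139 for Rps6, while all intervals on the right include 0.

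Array scaling moved these small differences. Centring each array on its median over the tested genes gave a median of 0.048 for aged minus young, quantile normalization 0.051, cyclic loess 0.055 and centring on the genes of like signal 0.055, with 37, 35, 37 and 37 of 39 genes higher. For impaired minus young the medians were 0.059, 0.058, 0.061 and 0.062, and for unimpaired minus young 0.040, 0.037, 0.056 and 0.053. The number of genes higher in unimpaired than in young arrays was 29, 31, 34 and 34. For impaired minus unimpaired the medians were 0.025, 0.0074, 0.0095 and 0.014. The scalings moved all genes down as well: the median over all tested genes for aged minus young went from 0.011 to -0.012, -0.0089, -0.0039 and -0.0048. Set against it, the members' median for aged minus young was higher by 0.060 log2 units as deposited and under both centrings, which shift every gene of an array alike. It was higher by 0.059 under quantile normalization and under cyclic loess. For unimpaired minus young the members' median was higher by 0.056 as deposited and under both centrings. Under quantile normalization it was higher by 0.045 and under cyclic loess by 0.059. Rps6 was called between aged and young arrays, and between impaired and young arrays, under each of the 4. Its adjusted p between aged and young arrays was 0.0353, 0.0182, 0.0140 and 0.0249 (limma, Benjamini-Hochberg). Over all tested genes, calls higher with age went from 280 to 241, 270, 271 and 252 and calls lower from 57 to 136, 143, 115 and 103. The share of calls that were higher thus went from 83.1% to 63.9%, 65.4%, 70.2% and 71.0%, mainly through more lower calls. Between impaired and young arrays that share went from 81.2% to 66.3%, 65.2%, 67.4% and 66.5%, and between unimpaired and young arrays from 81.2% to 62.5%, 68.0%, 70.6% and 74.6%.

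**Figure D4:**
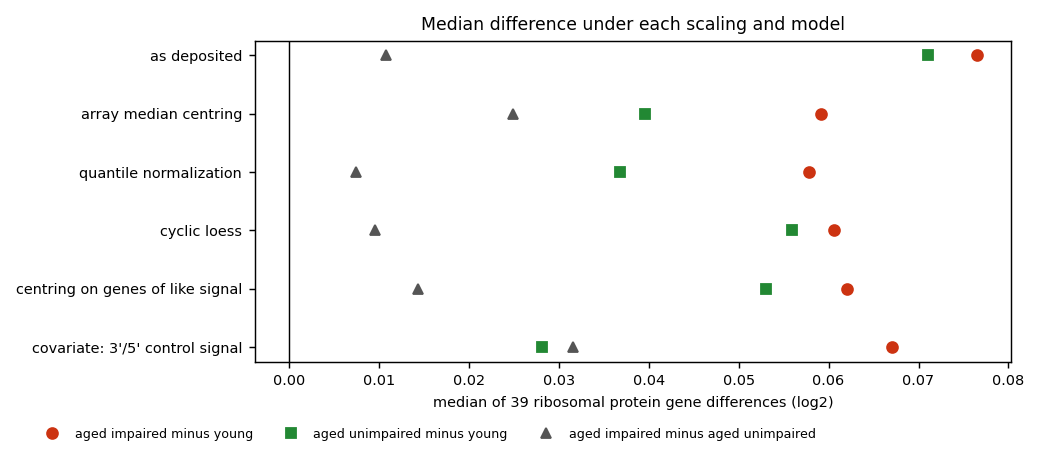
Median of the 39 log2 differences (horizontal axis) for impaired minus young, unimpaired minus young and impaired minus unimpaired, as deposited, under 4 other array scalings and with a covariate for the control probe sets. All medians lie above 0; aged unimpaired minus young moves most, from 0.071 as deposited to 0.028 with the covariate.

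RNA quality and microglial markers moved with the ribosomal protein level. The 3′ minus 5′ log2 signal of the beta-actin and GAPDH control probe sets, which is larger where RNA is more degraded, was 1.26 ± 0.047 (SD, n = 9) in young, 1.30 ± 0.036 (SD, n = 6) in aged unimpaired and 1.28 ± 0.038 (SD, n = 8) in aged impaired arrays. Over 23 arrays it correlated with the median centred signal of the members at r = 0.60 (Spearman 0.55), and at 0.52 without the 2 arrays farthest from its median. Within groups r was 0.61 in young, 0.77 in aged impaired and -0.093 in aged unimpaired arrays. With this signal as a covariate the median difference was 0.056 for aged minus young, 0.067 for impaired minus young, 0.028 for unimpaired minus young and 0.032 for impaired minus unimpaired, with 36, 39, 30 and 38 of 39 genes higher. Set against the median over all tested genes, the members' median was then higher by 0.048, 0.060, 0.015 and 0.034. As deposited it was higher by 0.060, 0.069, 0.056 and 0.016. Rps6 was still called between aged and young arrays (limma, Benjamini-Hochberg adjusted p = 0.0279) and between impaired and young arrays (limma, Benjamini-Hochberg adjusted p = 0.0264). The part of RNA quality in the differences was not tested further. With the median centred signal of all tested genes, a measure of array scaling, the member level correlated at r = 0.45 (Spearman 0.44), at 0.30 without the 2 farthest arrays, and at 0.61, 0.36 and -0.193 within young, aged impaired and aged unimpaired arrays.

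**Figure D5:**
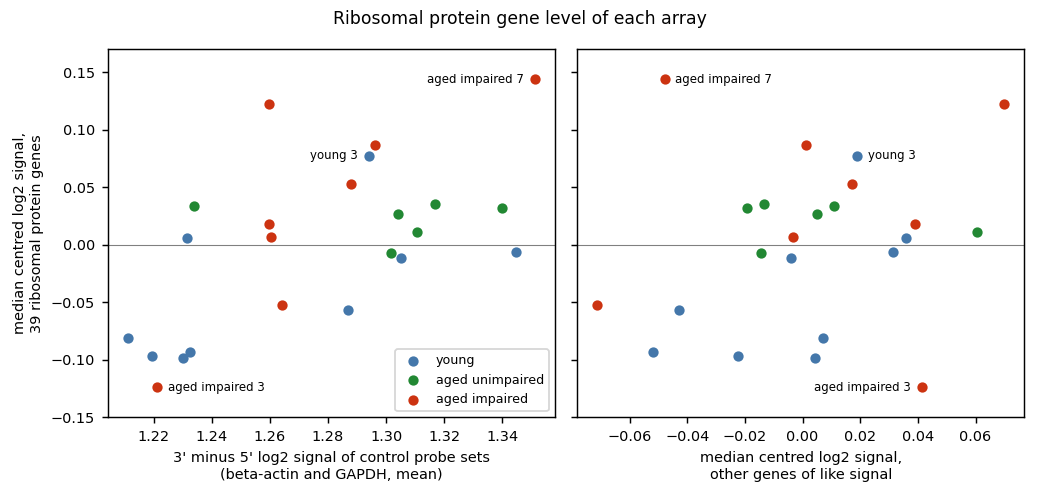
Median centred log2 signal of the 39 ribosomal protein genes in each array (vertical) against the 3′ minus 5′ log2 signal of the control probe sets (left) and against the median centred log2 signal of the other genes of like signal (right). Aged impaired replicate 7 is highest and aged impaired replicate 3 lowest on the vertical axis; r is 0.60 on the left and 0.21 on the right, and the latter is -0.0016 without the 2 farthest arrays.

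Of 18 microglia markers 14 were tested, and 9 rose with age, 0 fell, where 3.09% of all tested genes were called higher and 0.628% lower. Their mean log2 signal ran from 7.40 to 7.88 in young, 7.88 to 8.22 in aged unimpaired and 7.90 to 8.28 in aged impaired arrays. It correlated with the ribosomal protein level at r = 0.61 (Spearman 0.63), at 0.51 without the 2 farthest arrays, and at 0.60, 0.46 and -0.028 within young, aged impaired and aged unimpaired arrays. Astrocyte markers, of which 4 of 14 rose with age, correlated at 0.58 (Spearman 0.47), and at 0.45 without the 2 farthest arrays. Within groups their r was 0.50 in young, 0.42 in aged impaired and -0.469 in aged unimpaired arrays. Oligodendrocyte markers correlated with the ribosomal protein level at -0.0074 (Spearman 0.051) and CA1 pyramidal markers at -0.265 (Spearman -0.262). The part of these cells in the ribosomal protein differences was not tested. The tissue carried its CA1 markers in every array: the mean log2 signal of 10 tested markers of 12 ran from 10.7 to 11.3, with Wfs1 between 10.8 and 11.8. With age 1 of the 10 was called, Dcn, at -0.709 ± 0.153 (limma, Benjamini-Hochberg adjusted p = 0.00857), where 0.628% of tested genes were called lower. Between impaired and unimpaired arrays 0 of 10 were called, and 5 were lower and 0 higher at an unadjusted p under 0.05. Of all tested genes 3.75% were lower and 3.18% higher there. CA3 and CA2 markers had means from 7.67 to 8.91 over the arrays, dentate Prox1 ran from 6.49 to 8.58 and choroid plexus Ttr from 4.74 to 9.50.

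Probe sets that the annotation ties to several symbols were left out of the 43 genes and so give further readings of the same kind of gene. There were 33 such probe sets, naming 30 ribosomal protein genes of which 27 were not among the 43. With age 31 of 33 had a higher mean (52.6% of the 16201 probe sets tested), with a median of 0.073. Over these probe sets limma called 0 of the 33 (2.31% of all were called), and 12 were higher and 0 lower at an unadjusted p under 0.05, where 8.76% of all were higher and 5.41% lower. Impaired minus young gave a median of 0.077, unimpaired minus young 0.065 and impaired minus unimpaired 0.015. Their arrays stood in the same way: in aged impaired replicates 2 and 7 all 33 lay above their own mean, and in aged impaired replicate 3 it was 2. The annotation ties them to pseudogenes, paralogs or other genes too, so a signal there may not be that of 1 gene. Rpl28, Rpl30 and Rps13, dim on their own probe sets, had means of 12.38, 13.50 and 12.37 on these.

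Other genes of the translation machinery were read from lists, whose counts at an unadjusted p stand against 10.6% of all tested genes higher and 4.74% lower with age. Of 8 tested elongation factors limma called 0 between aged and young (2 higher and 0 lower at an unadjusted p under 0.05), with a median difference of 0.053. Of 37 initiation factors it called 0 (5 higher and 0 lower at an unadjusted p under 0.05), with a median of 0.017. Between impaired and young arrays it called 1, Eif2s3, a subunit of the factor that brings the initiator tRNA, at 0.211 ± 0.049 (limma, Benjamini-Hochberg adjusted p = 0.0152). In that comparison 3.09% of all tested genes were called higher and 0.716% lower. Of 54 ribosome biogenesis factors 0 were called with age (4 higher and 0 lower at an unadjusted p under 0.05), with a median of 0.0059. The smallest p among them was that of nucleolin, Ncl, at 0.169 ± 0.049 (limma, Benjamini-Hochberg adjusted p = 0.0533). Of 73 mitochondrial ribosomal proteins 0 were called (3 higher and 1 lower at an unadjusted p under 0.05), with a median of 0.015. Of 18 genes that carry growth signals to the ribosome 0 were called (0 at an unadjusted p under 0.05). The 1 tested paralog left out by the choice, Rpl7l1, differed by 0.0165 ± 0.045 and had a correlation of -0.015 with the member median.

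Genes outside the Rpl and Rps series whose messengers are known to carry a pyrimidine tract formed a further list, which shares genes with the lists of factors. Of 16 tested, 8 (50%) correlated with the member median above 0.5 across arrays, with a median of 0.48. Over all tested genes 7.65% correlated above 0.5, and 10% of the genes of like signal did. The share was 27.4% for mitochondrial ribosomal proteins and 57.1% for microglia markers. Eef1b2, of the exchange factor for elongation factor 1, stood at 0.81, Eif3h and Naca at 0.77, Rack1, a scaffold on the small subunit, at 0.75 and Eef1g at 0.71. At the low end of the same list stood Cct4, a subunit of a chaperonin, at 0.064, Nap1l1 at 0.20, Hnrnpa1 at 0.22 and Ipo7 at 0.23. The 8 elongation factors, 5 of them also on this list, had the same median of 0.48. Mitochondrial ribosomal proteins had a median of 0.34, initiation factors 0.28 and biogenesis factors 0.17, while microglia markers had 0.51. Within groups the medians were 0.39 for mitochondrial ribosomal proteins, 0.23 for initiation factors, 0.17 for biogenesis factors and 0.27 for microglia markers. They were 0.40 for the pyrimidine-tract list and 0.39 for elongation factors, against 0.79 for the members. With age 14 of the 16 pyrimidine-tract genes had a higher mean, with a median difference of 0.073, against 0.071 for the 39 members. At an unadjusted p under 0.05, 6 were higher and 0 lower, where 10.6% of all tested genes were higher and 4.74% lower. Limma called 1 of the 16, where 3.09% of all tested genes were called higher. It was Vim, a filament protein of glia, which rose with age by 0.494 ± 0.088 (limma, Benjamini-Hochberg adjusted p = 0.00172), while Rack1 differed by 0.098 ± 0.043 and did not pass.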

How the data were processed

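The deposited table held 31099 probe sets in 24 columns, of which 1 was blank, leaving 23 arrays. The authors deposited log2 signals; GCRMA is the tool named for them, per the submitters' processing notes, and its version and settings are not given in the sources used here. Symbols came from GEO's platform annotation, which can be old: 20832 probe sets had 1 symbol, 436 several and 9831 none. Values were used as deposited. Group means of all 3 groups were estimated in 1 linear model by limma 3.58.1 (R 4.3.3) over 9076 genes, with moderated tests and Benjamini-Hochberg adjustment over all of them, and called at an adjusted p under 0.05. The fit was tested on simulated data. Symbols Rpl3 to Rpl7 were read as members, not as paralogs ending in l. Members were chosen by symbol alone, and members, lists and the naming rule were set with earlier results of these data known. The rule named called members or the 6 with the smallest p in each comparison, those of highest or lowest signal or largest SD, a panel, and up to 3 genes of each list described. Rpl18, Rpl24, Rpl35 and Rpl39, and genes of the lists named for their correlation, fall outside it and were named after their values were seen. The other readings of the data covered scaling, filter, probe set, moderation, weights, RNA quality, a block, threshold and each array left out. The number of arrays limits the precision. Figures used matplotlib 3.10.9 in Python 3.11.15. Labels name each array a biological replicate, and no batch is given.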

Additional observations from a re-analysis of the deposited data

Results flagged for a closer look

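The signals of each named gene that passed the filter, and the median level of all 39 genes, were examined in each group, which made 69 sets of arrays. In 4 of them 1 array stood apart from the rest of its group; chance flags about 1 in 20 such groups, and the genes share their arrays. Young replicate 3 was the highest young array for Rpl6, at 12.70 against 12.57 for the next, and for Rpsa, at 11.41 against 11.29. Aged impaired replicate 3 was the lowest aged impaired array for Rps23, at 13.54 against 13.74 for the next, and for Rps28, at 11.63 against 11.96. Both arrays stand apart in the same sense across the whole set of ribosomal protein genes.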

How the results depend on the processing

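Rps6 was called under 15 of 16 alternatives and in all 23 fits without 1 array, both between aged and young and between impaired and young. Not all of the 16 could change its call. The threshold of 0.1 and the set without Rpl3 to Rpl7 reused the main fit. Rps6 has a single probe set, so the choices of filter and of probe set left its values unchanged. The replicate numbers of the labels did not pair the arrays: of 20 same-numbered pairs 1 had a correlation of deviations over 0.1, the range was -0.267 to 0.116, and 1 array correlated best with its own number. With the replicate number as a block, limma called 0 members between aged and young (Rps6 at 0.138, Benjamini-Hochberg adjusted p = 0.0919) and 0 between impaired and young (Rps6 at 0.145, adjusted p = 0.123). Over all tested genes the block took the calls with age from 280 to 137 higher and from 57 to 22 lower. Called members between aged and young were 2 with trend and robust moderation and 3 at a threshold of 0.1. Leaving out each array in turn gave 1 to 4 members called higher between aged and young and 1 to 3 between impaired and young. In the same fits without 1 array, members higher in impaired than unimpaired arrays ranged from 15 to 37, and with the RNA quality covariate there were 38. With the RNA quality covariate the unimpaired minus young median was 0.028, against 0.013 over all tested genes. With the lowest-mean probe set, a dim one with a mean of 4.69, Rps24 was at -0.0098 for aged minus young and -0.033 for unimpaired minus young. Without Rpl3 to Rpl7, added after seeing the data, medians were 0.071, 0.077, 0.067 and 0.011. With aged impaired replicates 7 and 8 and young replicate 5 left out, the arrays least like the rest, they were 0.067, 0.070, 0.061 and 0.0054. Differences near 0.07 log2 units stand beside standard errors of single genes, for aged minus young, from 0.025 for Rps29 to 0.058 for Rps28. This limits what 23 arrays can show.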

Other observations

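A second, dimmer probe set of Rpl7, with a mean of 6.82, differed between impaired and unimpaired arrays by -0.410 ± 0.133 log2 units (limma over all probe sets, Benjamini-Hochberg adjusted p = 0.572), while the brighter one, with a mean of 12.80, differed by -0.041 ± 0.051. The third probe set of Rpsa, with a mean of 9.40, differed between these groups by 0.041 ± 0.068, against 0.091 ± 0.052 for the one used. Young replicate 9 had 23 of 39 ribosomal protein genes above their own mean; without it the median of aged minus young was 0.085 and Rps6 was the 1 gene called.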
